A study of Arabidopsis thaliana with 30 samples.

Results

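The 8 genes described here encode small subunits of RNA polymerases II, IV and V and were followed across sorted root cell types of Arabidopsis thaliana at acidic and standard pH. They are NRPB6A (AT5G51940) and NRPB6B (AT2G04630) for the sixth subunit, NRPB7 (AT5G59180), NRPD7 (AT3G22900) and NRPE7 (AT4G14660) for the seventh, NRPB9A (AT3G16980) and NRPB9B (AT4G16265) for the ninth and NRPB12 (AT5G41010) for the twelfth. The genes were listed by name, with earlier results of these data known, and each was read by 1 probe set. They were 8 of the 13286 genes that a probe set of the array identified without another gene. The study measured gene expression on 30 Affymetrix ATH1 arrays, to compare how root cell types respond to low pH. All seedlings were of the Columbia ecotype and grew for 5 days at pH 5.7, before 24 h on new medium with 3 mM DMG that was set either to pH 4.6 or to pH 5.7. Roots, then 6 days old, were turned into protoplasts, and fluorescence-activated sorting collected the GFP-positive cells of 5 marker lines. The lines were Pet111::GFP for columella root cap, pWER::GFP for epidermis with lateral root cap, pCOR315.1::GFP for cortex, pSCR::GFP for endodermis with quiescent center and pWOL::GFP for stele. Each cell type is therefore what 1 promoter or marker lights up, and each of the 10 groups had 3 arrays. Whether the replicates of a group were grown or sorted separately is not in the labels, and p-values then measure only the spread among these arrays, part of which may be technical.

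RNA polymerase II transcribes protein-coding genes in all eukaryotes. Plants also have polymerases IV and V, which are derived from it and act in RNA-directed DNA methylation: polymerase IV makes the precursors of small interfering RNAs, and polymerase V makes the transcripts to which those RNAs are guided. Several small subunits are built into more than 1 of these enzymes. The gene annotation gives NRPB6A also as a subunit of polymerases IV and V, NRPB6B also as one of polymerase V, NRPB9A and NRPB9B also as subunits of IV and V, and NRPB12 likewise. The seventh subunit, which forms a stalk with the fourth, has separate genes: NRPB7 for polymerase II, NRPD7 for IV and NRPE7 for V.

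Array medians lay between 43.8 and 71.7 signal units, and log2 signals of arrays of a group correlated with r of 0.945 to 0.981 across probe sets. Of 26 marker genes listed for the cell types 10 were measured, and 7 of these had their highest mean in the cell type they mark. Those were EXPA7, EXPA18, COR315, AT1G62510, NPF6.4, GSO1 and LHW, while CO2 and PHV were highest elsewhere, as was EN7, which was brightest in cortex. None of the 4 columella markers was measured, so that label could not be checked, and the measured epidermis markers EXPA7 and EXPA18 were also bright in stele arrays. Summed marker levels moved with pH: the summed signal of 2 epidermis markers was 1046 to 1559 at pH 4.6 and 2809 to 8896 at pH 5.7 in epidermis arrays. The sum of 4 cortex markers in cortex arrays was 2646 to 3885 at pH 4.6 and 6920.3 to 7904 at pH 5.7. The sum of 2 stele markers in stele arrays was 545 to 986 at pH 4.6 and 311 to 474 at pH 5.7. Singly, in the limma test described below, EXPA7 and EXPA18 passed in epidermis and COR315 and AT1G62510 in cortex (highest adjusted p = 0.0285). NPF6.4 did not pass in cortex (limma adjusted p = 0.813), nor did PHV (0.111) or LHW (0.0837) in stele. The part of these marker shifts in the subunit results was not tested. In cortex, 6 of 6 control ratios of 3' to 5' signal, which track how complete the labelled RNA is, were lower at pH 4.6, by 0.16 to 1.00 on the log2 scale, and 4 of these did not overlap between the pH values, compared with at most 1 of 6 in each other cell type. GAPDH, Ubq and Actin each gave more than 1 of the 6 ratios. A GAPDH ratio was also lower without overlap in columella (-0.59), epidermis (-0.19) and endodermis (-0.55). The part of these ratios in the results of cortex or the other cell types was not tested, and the mean response is also given without cortex. A lower signal cannot be told apart between fewer expressing cells in a sorted population and less RNA per cell, and all signals are relative to the rest of their array.

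At pH 4.6, 5 of the 8 genes were brighter than at pH 5.7 in the mean response, and NRPB9B was dimmer. Averaged over the 5 cell types, NRPB12 rose 1.5-fold, NRPB6A 1.44-fold and NRPB6B 1.26-fold, and NRPB9B fell 1.28-fold. NRPD7 and NRPE7 rose too, and no fold is given since some of their signals lie under the pseudocount. NRPB7 and NRPB9A did not pass the test. Folds here are on the scale of log2(signal + 11.9), which understates the change of faint genes, and a change was called at an adjusted p under 0.05 in limma, with Benjamini-Hochberg adjustment over 17039 probe sets. The mean response thus called 6 of 8 members, where 42.1% of all tested probe sets were called. The 5 higher members stand against a background of 23.2% called higher, and the 1 lower member against 18.9% called lower. The members' median change was 0.43 on the log2 scale, against 0.0039 over all tested probe sets. Over all probe sets, 3948 rose and 3217 fell, or 3153 and 4214 when arrays were set to equal medians. With equal medians the median log2 change of all probe sets was -0.068 in epidermis, -0.085 in cortex and -0.043 in stele, where it was 0.05, 0.017 and 0.071 as deposited. No called change of a member reversed its direction under that or another alternative.

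Cortex held the largest count of called members. There 4 of 8 passed, all higher, namely NRPB6A, NRPB6B, NRPB12 and NRPD7, where the background was 19.1%. Of these, NRPD7 lay under the filter on low signals on every cortex array. In columella 2 of 8 passed, NRPB12 and NRPE7, against a background of 20.5%, so this count lies near the background. NRPB6A and NRPB6B, 2 of 8, passed in epidermis, where 10.2% of probe sets were called. In endodermis 2 of 8 passed against 16.6%, with NRPB6A higher and NRPB9B lower. Stele gave 1 of 8, NRPB6A, against 7.05%. The members' median log2 change was 0.16 in columella, 0.37 in epidermis, 0.66 in cortex, 0.50 in endodermis and 0.31 in stele, while the median over all tested probe sets lay between -0.018 and 0.071. Differences between the cell types in their response to pH were tested with an F test, which called 1 of 8 members, NRPB6B, at a background of 12.5%, the same share.

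Levels of the genes also differed between cell types. The F test across cell types called 8 of 8 members at pH 4.6, where 78.9% of probe sets were called, and 8 of 8 at pH 5.7, where 82.7% were. Differences between these sorted populations were thus the rule on the array, and the count is close to that background. NRPB9A reached the test mainly through columella, with 5 of its 6 arrays above the filter. Columella stood at the top or near it for most of the genes, and epidermis at the bottom or near it. NRPB9B had its highest mean in endodermis at both pH values.

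**Figure D1:**
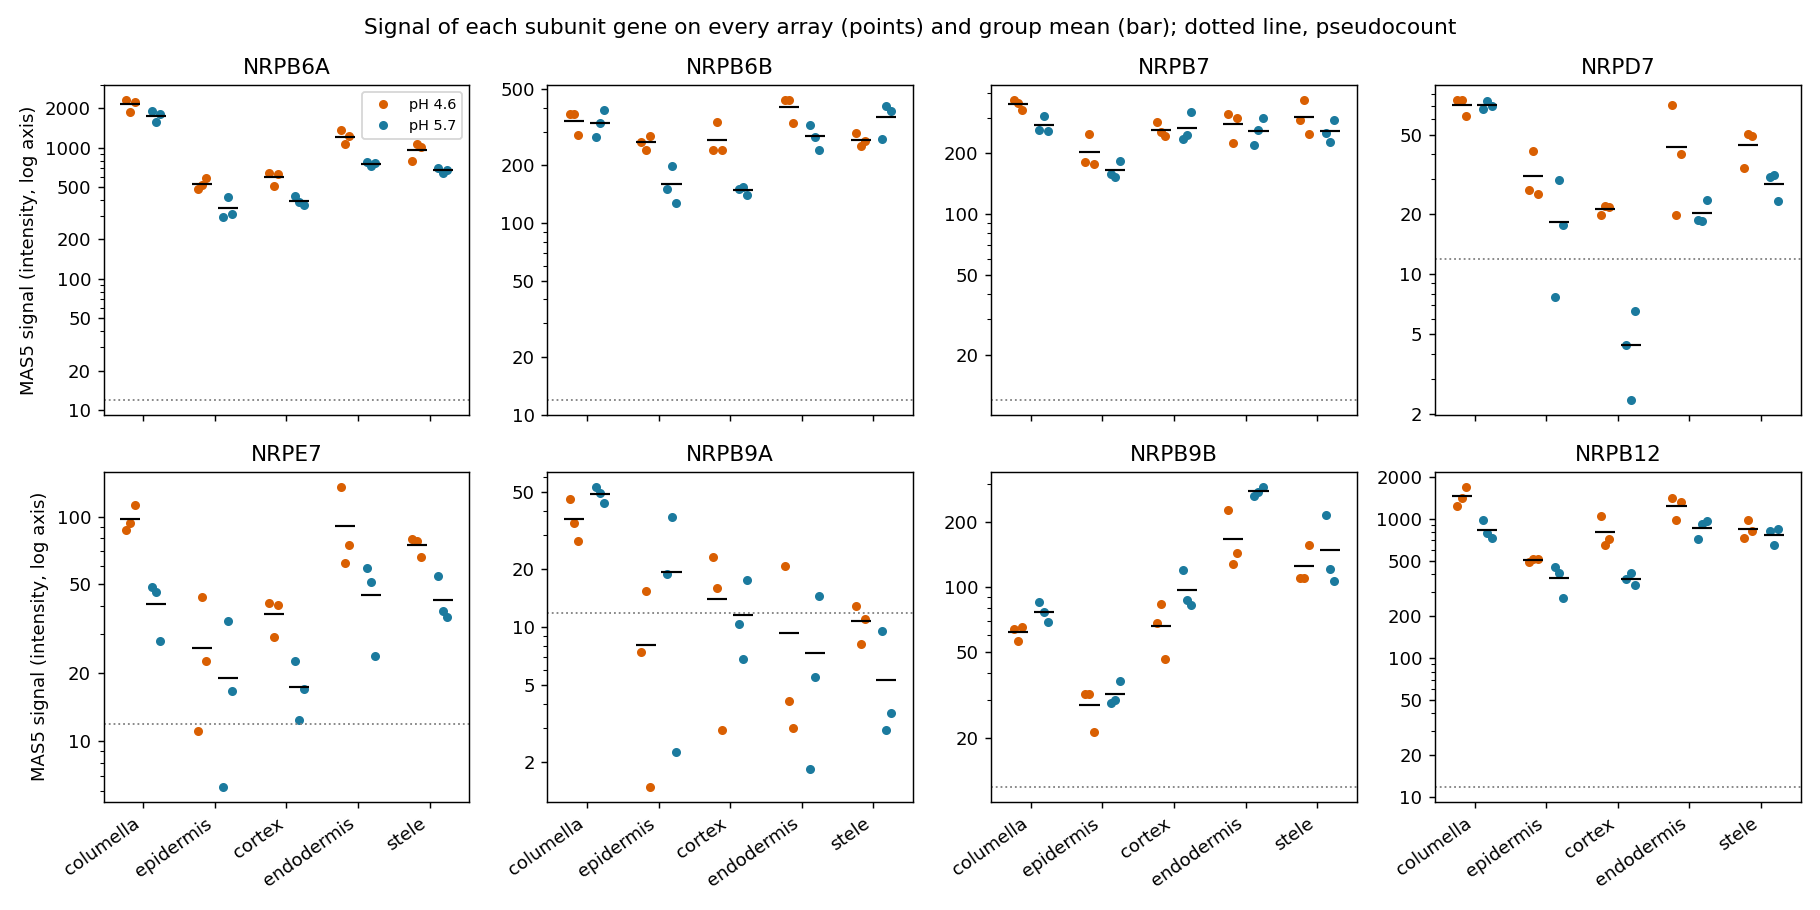
MAS5 signal (log axis) of each subunit gene on all 30 arrays, with pH 4.6 (orange) left of pH 5.7 (blue) in each cell type, points for arrays, bars for means of 3 and a dotted line at the pseudocount of 11.9. NRPB6A and NRPB12 are brighter at pH 4.6 in most cell types, NRPB9B is brightest in endodermis, and NRPB9A is above the dotted line on every array of columella alone.

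NRPB6A, a core subunit that all of these polymerases share, rose in 4 of the 5 cell types at pH 4.6. In columella, where it was brightest, its signals were 2320.2, 1878 and 2250.1 at pH 4.6 and 1913, 1574 and 1805 at pH 5.7. Epidermis arrays gave 484, 522 and 587 at pH 4.6, against 297, 425 and 313 at pH 5.7. Cortex arrays had 648, 516 and 627 at pH 4.6, against 431, 386 and 369 at pH 5.7. The columella values overlapped, while in epidermis and cortex all 3 arrays at pH 4.6 were above all 3 at pH 5.7. Its endodermis signals were 1378, 1061 and 1222 at pH 4.6, against 773, 724 and 766 at pH 5.7. In stele they were 792, 1078 and 1016 at pH 4.6, against 697, 641 and 680.0 at pH 5.7. Neither pair of groups overlapped. The log2 change was 0.68 ± 0.15 in endodermis (SE, limma adjusted p = 0.00299), 0.62 ± 0.15 in epidermis (adjusted p = 0.00973), 0.58 ± 0.15 in cortex (adjusted p = 0.00805) and 0.50 ± 0.15 in stele (adjusted p = 0.0474). In columella it was 0.28 ± 0.15 (adjusted p = 0.220), which did not pass. The mean over cell types was 0.53 ± 0.069 (adjusted p = 4.64e-07), and the response was not called different between cell types (adjusted p = 0.628). The stele call was lost in 28 of 42 alternatives, with adjusted p from 0.0213 to 0.225. The epidermis call was lost in a fit to the 6 epidermis arrays and without epidermis pH 4.6 replicate 3, pH 5.7 replicate 1 or pH 5.7 replicate 3, with adjusted p over all alternatives from 0.000759 to 0.132.

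NRPB6A had the same order over cell types at both pH values. At pH 4.6 columella stood 0.81 ± 0.15 log2 units (SE) above endodermis (limma adjusted p = 6.22e-05), followed by stele, and stele stood above cortex (adjusted p = 0.000866). Endodermis and stele did not differ beyond their spread, nor did cortex and epidermis. At pH 5.7 columella was 1.21 ± 0.15 above endodermis (adjusted p = 1.02e-07) and stele was above cortex (adjusted p = 0.000272). The adjusted p of the F test across cell types was 8.04e-12 at pH 4.6 and 3.60e-13 at pH 5.7.

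NRPB6B, the second gene for the sixth subunit, rose in epidermis and cortex at pH 4.6, and its response differed between cell types. Epidermis signals were 266, 242 and 286 at pH 4.6, against 151, 199 and 127 at pH 5.7. In cortex NRPB6B read 241, 337 and 239 at pH 4.6, against 152, 155 and 139 at pH 5.7. In both, every array at pH 4.6 was above every array at pH 5.7. The log2 change was 0.71 ± 0.19 in epidermis (SE, limma adjusted p = 0.0142) and 0.81 ± 0.19 in cortex (adjusted p = 0.00250). Endodermis gave 438, 439.7 and 333 at pH 4.6, against 326, 283 and 242 at pH 5.7, which did not overlap either, but the change of 0.49 ± 0.19 did not pass (adjusted p = 0.0720). Columella signals were 371, 369.8 and 289 at pH 4.6, against 281, 333 and 387 at pH 5.7. Stele signals were 294, 252 and 269 at pH 4.6, against 275, 411 and 383 at pH 5.7. Both overlapped, with a log2 change of 0.042 ± 0.19 in columella (adjusted p = 0.918) and -0.36 ± 0.19 in stele (adjusted p = 0.274). The F test of the difference in response between cell types had an adjusted p of 0.0101. It was the single member called there, and it kept that call in all 41 alternatives. The mean change of 0.34 ± 0.084 (adjusted p = 0.00175) was 0.22 without cortex (adjusted p = 0.0675), where it was no longer called. The epidermis call was lost under the same alternatives as that of NRPB6A, with adjusted p from 0.000631 to 0.121.

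For NRPB6B at pH 4.6, no neighbours in the order endodermis, columella, stele, cortex and epidermis differed, and the F test gave an adjusted p of 0.0199, lost without endodermis pH 4.6 replicate 1 or 2 (range 0.00549 to 0.0805). At pH 5.7 the order was stele, columella, endodermis, epidermis and cortex, with a gap between endodermis and epidermis (limma adjusted p = 0.000713) and an F test p of 5.39e-07 after adjustment.

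NRPB12, a small zinc-binding subunit that the polymerases share, rose in cortex and columella. Cortex signals were 1051, 648 and 709 at pH 4.6, against 370.2, 406 and 337 at pH 5.7. In columella they were 1236, 1410.2 and 1699 at pH 4.6, against 985, 788 and 726 at pH 5.7. In both cell types all arrays at pH 4.6 were above those at pH 5.7. The log2 change was 1.06 ± 0.20 in cortex (SE, limma adjusted p = 0.000285) and 0.79 ± 0.20 in columella (adjusted p = 0.00483). Epidermis gave 487, 512 and 511 at pH 4.6, against 448, 406 and 268 at pH 5.7. Endodermis gave 1396, 980.0 and 1318 at pH 4.6, against 709.5, 921 and 957 at pH 5.7. These groups did not overlap either, but the changes of 0.45 ± 0.20 in epidermis (adjusted p = 0.164) and 0.50 ± 0.20 in endodermis (adjusted p = 0.0840) did not pass. Stele signals overlapped, at 721, 986 and 813 at pH 4.6, against 812, 650.3 and 842 at pH 5.7, a log2 change of 0.12 ± 0.20 (adjusted p = 0.781). The mean change was 0.59 ± 0.09 (adjusted p = 5.40e-06), or 0.47 without cortex, and the cell types were not called different in response (adjusted p = 0.132). At pH 4.6 columella and endodermis led, endodermis was above stele (adjusted p = 0.0461), and cortex was above epidermis (adjusted p = 0.0139). At pH 5.7 endodermis, columella and stele did not differ as neighbours, and stele was above cortex (adjusted p = 0.000151). The F test of NRPB12 across cell types gave an adjusted p of 1.13e-06 at pH 4.6 and 3.51e-07 at pH 5.7.

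**Figure D2:**
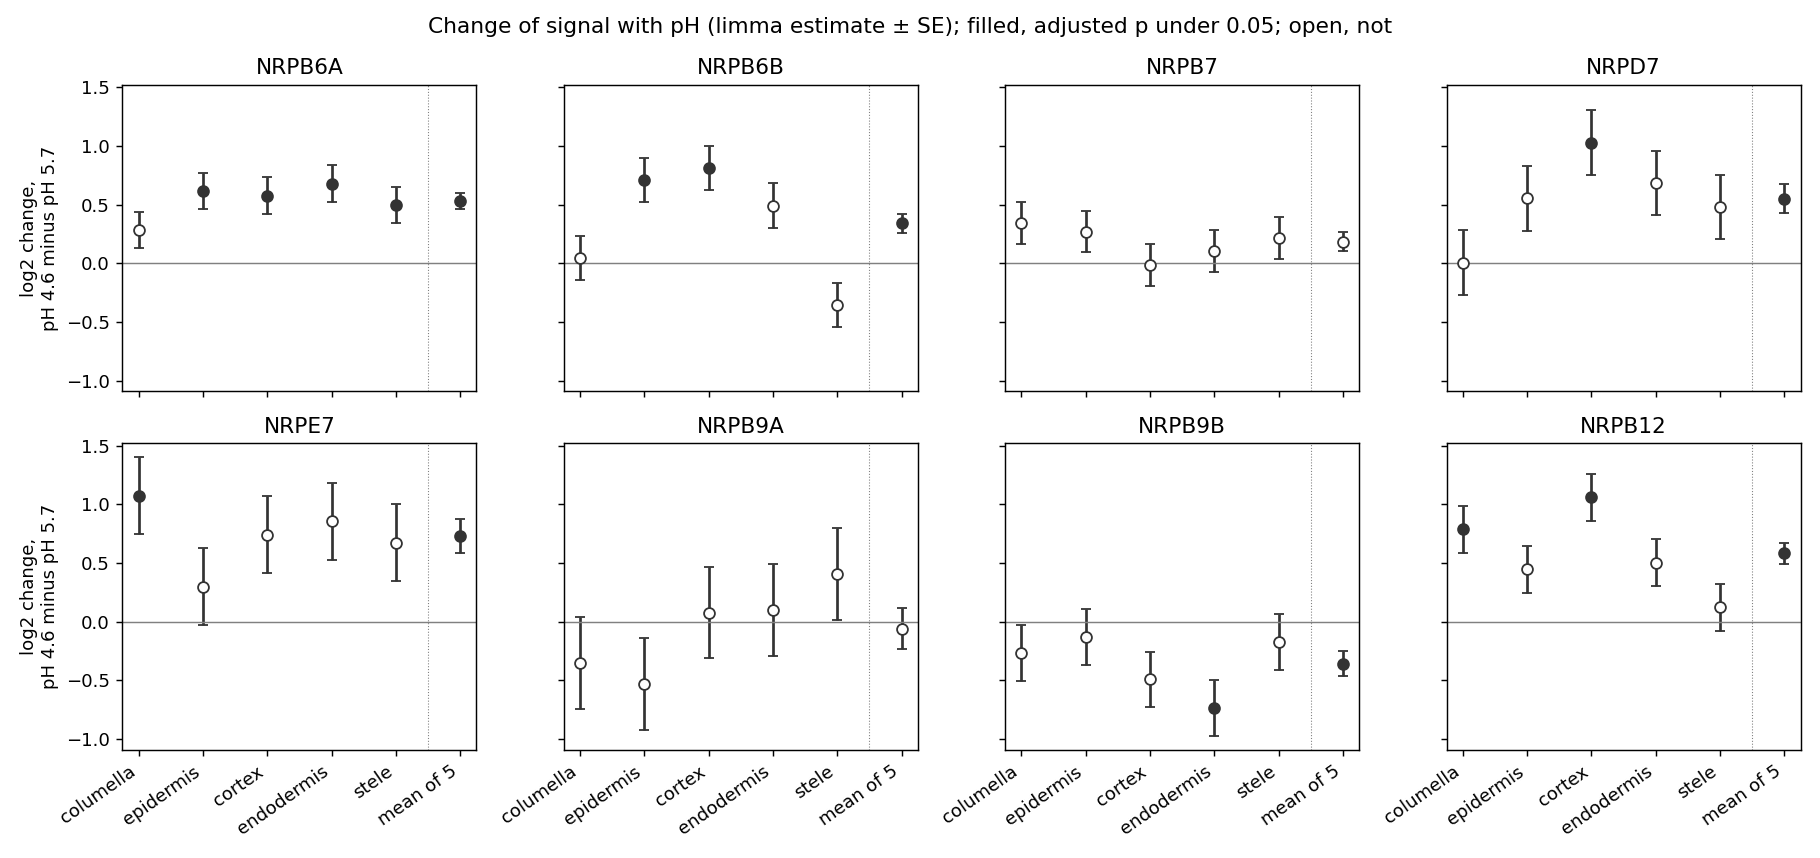
Log2 change of each subunit gene at pH 4.6 minus pH 5.7 in each cell type and averaged over cell types, with standard errors from the limma fit and filled points for adjusted p under 0.05. The filled points lie above 0 for NRPB6A, NRPB6B, NRPB12, NRPD7 and NRPE7 and below 0 for NRPB9B alone.

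Of the 3 seventh subunits, the polymerase IV and V forms rose on average and the polymerase II form did not pass. NRPE7, the polymerase V form, gave 87.2, 93.9 and 113 at pH 4.6 in columella, against 48.5, 46.4 and 28.0 at pH 5.7. The 2 sets of arrays were far apart, and the log2 change was 1.07 ± 0.33 (SE, limma adjusted p = 0.0185). That call was lost with a pseudocount of 1 and without columella pH 4.6 replicate 3 or pH 5.7 replicate 3, with adjusted p from 0.000957 to 0.103 over the alternatives. Cortex signals of NRPE7 were 41.1, 28.9 and 40.5 at pH 4.6, against 22.7, 12.4 and 17.0 at pH 5.7. Its endodermis signals were 136, 61.9 and 74.6 at pH 4.6, against 58.9, 51.2 and 23.9 at pH 5.7. In stele they were 79.4, 78.0 and 65.9 at pH 4.6, against 54.3, 37.9 and 35.8 at pH 5.7. In these 3 cell types the pH 4.6 arrays also stood above all pH 5.7 arrays, with log2 changes of 0.67 to 0.85 that did not pass (lowest adjusted p = 0.0711). NRPE7 passed in cortex with array weights and with a replicate block within cell types (adjusted p from 0.00544 to 0.317 over the alternatives). In endodermis it passed in 4 of 41 alternatives, namely the median pseudocount, the same block and leaving out epidermis pH 5.7 replicate 2 or endodermis pH 4.6 replicate 2 (adjusted p from 0.0222 to 0.359). Epidermis values overlapped, at 11.1, 43.6 and 22.8 at pH 4.6, against 6.24, 34.1 and 16.6 at pH 5.7. The mean change was 0.73 ± 0.15 (adjusted p = 0.000189), and it was 0.73 without cortex (adjusted p = 0.000903).

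NRPD7, the polymerase IV form, was faint outside columella and was called higher in cortex. On every cortex array it lay under percentile 40, the filter on low signals (highest percentile 38.2). It was tested because arrays of other cell types passed that filter, 13 of 30 in all, so the cortex call rests on signals under the filter. Its cortex signals were 19.8, 22.1 and 21.7 at pH 4.6, against 4.43, 2.34 and 6.53 at pH 5.7. The pH 5.7 signals lie under the pseudocount, so no fold is given, and the log2 change of 1.03 ± 0.28 (SE, limma adjusted p = 0.00815) was lost with a pseudocount at the median of all values, where adjusted p was 0.0630 (range 5.64e-05 to 0.0630). Stele gave 34.1, 50.2 and 49.4 at pH 4.6, against 30.7, 31.3 and 23.2 at pH 5.7, without overlap but also without a call (log2 change 0.48 ± 0.28, adjusted p = 0.325). In endodermis the signals were 70.5, 19.9 and 40.2 at pH 4.6, against 18.7, 18.4 and 23.6 at pH 5.7. Epidermis gave 26.5, 41.2 and 25.3 at pH 4.6, against 7.66, 29.7 and 17.7 at pH 5.7. Columella read 74.4, 74.7 and 62.4 at pH 4.6, against 67.1, 73.6 and 69.6 at pH 5.7. These last 3 overlapped and did not pass, and the log2 change in columella was 0.004. The mean change was 0.55 ± 0.12 (adjusted p = 0.000666). Its size depended on the pseudocount, with 0.90 for a pseudocount of 1 and 0.24 for one at the median of all values, and the call held in both. The mean change was 0.43 without cortex (adjusted p = 0.0158).

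NRPB7, the polymerase II form, passed in no comparison of pH. Group means ran from 203 ± 40.1 in epidermis to 351 ± 19.4 in columella at pH 4.6, and from 165 ± 16.3 in epidermis to 275 ± 27.1 in columella at pH 5.7 (SD, n = 3). Columella was the single cell type without overlap, at 368, 354 and 329.8 at pH 4.6, against 262, 306 and 257 at pH 5.7, and its log2 change of 0.34 ± 0.18 did not pass (limma adjusted p = 0.195). The mean change was 0.18 ± 0.08 (adjusted p = 0.0655), with adjusted p from 0.0321 to 0.337 over the alternatives. It passed in 8 of 42 alternatives, among them the mean without cortex (adjusted p = 0.0421), array weights and leaving out cortex pH 5.7 replicate 3, endodermis pH 4.6 replicate 2, endodermis pH 5.7 replicate 3, stele pH 4.6 replicate 3 or stele pH 5.7 replicate 3.

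Within each array, the polymerase V form moved further than the polymerase II form, in a comparison chosen after the data were seen. The log2 ratio of NRPE7 over NRPB7 rose by 0.55 at pH 4.6, with a positive change in 5 of 5 cell types (exact permutation of pH labels within cell types, two-sided, adjusted p = 0.00499 over 3 ratios). NRPD7 over NRPB7 rose by 0.37, in 4 of 5 cell types (permutation test, adjusted p = 0.0188), and lost the call with a pseudocount at the median of all values. NRPE7 over NRPD7 changed by 0.18 in the mean (permutation test, adjusted p = 0.248), which did not pass. All 3 ratios were formed from values already seen, so their p-values are no separate support for a difference between the genes. NRPD7 lay below the pseudocount on 4 of 30 arrays and NRPE7 on 2, where a shift of the whole array does not fully cancel.

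The order of each seventh subunit over the cell types was as follows. NRPB7 had epidermis last at both pH values, below stele at pH 5.7 (limma adjusted p = 0.00791), and no other neighbours in either order differed. NRPD7 had columella first at both pH values: at pH 4.6 no neighbours differed, and at pH 5.7 columella was above stele (adjusted p = 0.00204) and epidermis above cortex (adjusted p = 0.0151). F tests across cell types gave NRPD7 an adjusted p of 0.00165 at pH 4.6 and 3.81e-07 at pH 5.7, and NRPB7 one of 0.00513 at pH 4.6 and 0.00373 at pH 5.7. For NRPE7, columella, endodermis and stele did not differ from their neighbours at either pH, and the lowest of these was above cortex at pH 4.6 (adjusted p = 0.0448) and at pH 5.7 (adjusted p = 0.0279). The F test for NRPE7 across cell types had an adjusted p of 0.000129 at pH 4.6 and 0.00885 at pH 5.7, and the one at pH 5.7 was lost with quantile normalization and equal array medians (highest adjusted p = 0.0560, lowest 0.000336).

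The ninth subunit, which in yeast polymerase II contributes to accurate transcription and to RNA cleavage, has 2 genes, of which NRPB9B was the member that fell. NRPB9B was brightest in endodermis and fell there at pH 4.6, with 228, 128 and 144 at pH 4.6, against 264, 277 and 292 at pH 5.7. All arrays at pH 4.6 lay below those at pH 5.7, and the log2 change was -0.74 ± 0.24 (SE, limma adjusted p = 0.0316). The 2 measured endodermis markers summed to 3225 to 6132 at pH 4.6 and 7194 to 7498 at pH 5.7 on the same arrays. Neither passed on its own (limma adjusted p = 0.215 for GSO1 and 0.0683 for EN7), and their part in the fall of NRPB9B was not tested. The call was lost in 8 of 42 alternatives, with adjusted p from 0.00847 to 0.130: with a pseudocount of 1, with a replicate block within cell types, with the 6 endodermis arrays alone, and without any 1 of endodermis pH 4.6 replicates 2 and 3 and pH 5.7 replicates 1, 2 and 3. Columella signals were 64.1, 56.6 and 65.2 at pH 4.6, against 85.5, 76.8 and 68.6 at pH 5.7. In cortex NRPB9B read 68.0, 83.5 and 46.5 at pH 4.6, against 121, 87.1 and 82.5 at pH 5.7. The columella groups did not overlap and the cortex groups did, and neither change passed (adjusted p = 0.489 in columella and 0.157 in cortex). Stele gave 111, 110.1 and 157 at pH 4.6, against 216, 121 and 107 at pH 5.7. Epidermis gave 32.1, 32.1 and 21.3 at pH 4.6, against 29.1, 30.1 and 36.9 at pH 5.7. Both overlapped. The mean change was -0.36 ± 0.11 (adjusted p = 0.00723), negative in 5 of 5 cell types, and -0.33 without cortex (adjusted p = 0.0322).

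Over cell types, NRPB9B at pH 4.6 had endodermis and stele first, stele above cortex (limma adjusted p = 0.00579) and columella above epidermis (adjusted p = 0.00245). At pH 5.7 endodermis was above stele (adjusted p = 0.00423), stele, cortex and columella did not differ as neighbours, and columella was above epidermis (adjusted p = 0.000554). Its F test across cell types had an adjusted p of 3.41e-08 at pH 4.6 and 5.92e-10 at pH 5.7.

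NRPB9A was faint outside columella. Its columella signals were 46.1, 34.7 and 28.0 at pH 4.6, against 53.2, 49.6 and 44 at pH 5.7, and the groups overlapped. On the other 24 arrays it ran from 1.5 to 23.0 at pH 4.6 and from 1.86 to 37.0 at pH 5.7, and on 15 of the 30 arrays it was below the pseudocount. It was above the filter on low signals on 6 arrays, 5 of them of columella and the other epidermis pH 5.7 replicate 2. Having passed mainly through columella, its difference between columella and the rest is not read as a result. No change with pH passed in a cell type or in the mean, which was -0.06 ± 0.17 (SE, limma adjusted p = 0.814).

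Paralogs were compared by their log2 ratio on each array, with the pseudocount added to each signal. A shift of the whole array cancels in that ratio only where the signals of both genes lie far above the pseudocount. NRPB9A was below the pseudocount on 15 of the 30 arrays. The absolute ratio of 2 probe sets has no meaning of its own, since probes differ in brightness, so differences of the ratio between groups alone are read. Whether a paralog's RNA binds the other's probes was not tested. Averaged over the cell types, the ratio of NRPB6A over NRPB6B was 0.19 higher at pH 4.6 (exact permutation of pH labels within cell types, two-sided, p = 0.129, adjusted p = 0.129 over 2 ratios). NRPB9A over NRPB9B was 0.30 higher (permutation p = 0.104, adjusted p = 0.129). Neither shift passed.

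Within single cell types, 3 arrays against 3 cannot give an exact permutation p below 0.1. Stele reached that value for NRPB6A over NRPB6B, with a log2 ratio of 1.77 ± 0.34 at pH 4.6, against 0.91 ± 0.35 at pH 5.7 (SD, n = 3 each; exact permutation p = 0.1). All 3 ratios at pH 4.6 lay above those at pH 5.7 there, and in the other 4 cell types they overlapped. For NRPB9A over NRPB9B the groups were apart in endodermis, at -3.13 ± 0.25 at pH 4.6, against -3.96 ± 0.41 at pH 5.7 (SD, n = 3 each; exact permutation p = 0.1). They were also apart in stele, at -2.59 ± 0.29 at pH 4.6, against -3.17 ± 0.24 at pH 5.7 (SD, n = 3 each; exact permutation p = 0.1). In both cell types NRPB9A had signals of 20.7 or less, near or below the pseudocount.

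The balance of the sixth subunit paralogs differed between cell types. Such differences were the rule for single probe sets, with 78.9% called at pH 4.6 and 82.7% at pH 5.7. How often the ratio of other pairs of probe sets differs in this way was not tested. The log2 ratio of NRPB6A over NRPB6B was 2.49 ± 0.30 (SD, n = 6) in columella, against 1.27 ± 0.37 (SD, n = 24) in the other cell types. The columella values, 2.19 to 2.91, did not overlap with the others, 0.60 to 2.04. The permutation test within each pH gave p = 4.83e-06, the smallest it can give (adjusted p = 4.83e-05 over 10 tests). That test exchanges single arrays and treats the 24 others as alike, though they come from several cell types with unlike mean ratios. Its p-value thus depends on the number of arrays and not of cell types. In epidermis the same log2 ratio differed from that of the other cell types by -0.61 (permutation adjusted p = 0.0476), a call that was lost with a pseudocount of 1, and cortex, endodermis and stele did not pass. The other cell types here include columella. Mean ratios were 1.02 in epidermis, 1.23 in cortex, 1.48 in endodermis and 1.34 in stele, and epidermis was not tested without columella. For NRPB9A over NRPB9B the ratio was -3.55 ± 0.55 (SD, n = 6) in endodermis, against -1.57 ± 1.04 (SD, n = 24) in the other cell types. NRPB9A lay below the pseudocount on 4 of the 6 endodermis arrays and on 3 of the 6 epidermis arrays, and it passed the filter mainly through columella. Its ratio to NRPB9B over cell types is therefore given as a description, with no test read from it.

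**Figure D3:**
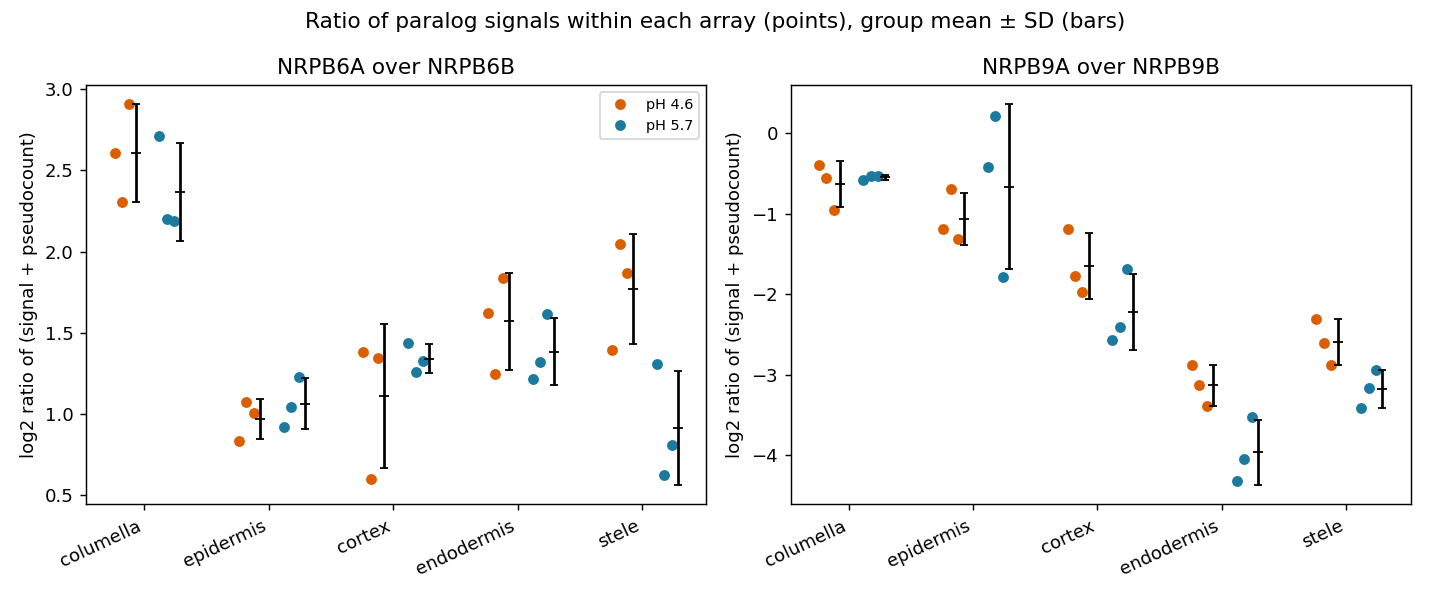
Log2 ratio of the A over the B paralog of the sixth and the ninth subunit on each of the 30 arrays, with pH 4.6 (orange) left of pH 5.7 (blue) in each cell type and bars for means of 3. The sixth subunit ratio is highest in columella and separates the pH values in stele, and the ninth subunit ratio is lowest in endodermis, where NRPB9A is mostly below the pseudocount.

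Few other genes of these polymerases and their pathways were read by a probe set of their own. Of the other subunits of polymerases II, IV and V, NRPB10L alone had a probe set without another gene, and its signal of 0.484 to 22.4 over the 30 arrays did not pass the filter. In RNA-directed DNA methylation 2 tested probe sets of a list of 26 genes, those of the chromatin remodelers CLSY2 (-0.21 ± 0.15 in the mean log2 change) and CLSY3 (-0.012 ± 0.15), gave no call, and CLSY4 and another probe set of CLSY3 were too faint to test. The elongation list of 15 genes left SPT4-1 alone tested, at 0.036 ± 0.15, without a call. SPT5-1, with a signal of 1.01 to 36.0 over the 30 arrays, did not pass the filter. Of 5 tested genes of 18 linked to polymerase II initiation and assembly, 2 rose in the mean and none fell, so that the share called was near the background, with a median log2 change of 0.13. IYO, a polymerase II associated factor, averaged 68.4 ± 53.1 at pH 4.6 and 37.0 ± 24.0 at pH 5.7 (SD over 15 arrays each), a log2 change of 0.62 ± 0.13 (SE, limma adjusted p = 0.000208). TFIIEB, a subunit of the initiation factor TFIIE, changed by 0.39 ± 0.08 (adjusted p = 0.000233). Its partner TFIIEA fell in cortex, by 0.47 ± 0.14 on the log2 scale (adjusted p = 0.0201), and did not pass in the mean.

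Subunits of polymerases I and III, the enzymes that make ribosomal and transfer RNA, mostly rose in the mean response. Of 6 tested genes 5 rose and none fell, where 23.2% of all tested probe sets were called higher, and the median log2 change of the 6 was 1.09. NRPC7, a polymerase III subunit, did not pass, at 0.32 ± 0.15 (SE, limma adjusted p = 0.0804). NRPA2, the second largest subunit of polymerase I, averaged 557 ± 217 at pH 4.6 and 162 ± 74.4 at pH 5.7 (SD over 15 arrays each), a log2 change of 1.76 ± 0.11 (SE, limma adjusted p = 2.96e-13). NRPC2, its counterpart in polymerase III, changed by 1.70 ± 0.11 (adjusted p = 1.07e-12). The largest subunits changed by 1.52 ± 0.13 for NRPA1 and 0.66 ± 0.11 for NRPC1 (highest adjusted p of these = 1.48e-05). NRPA1, NRPA2 and NRPC2 passed in each of the 5 cell types. The difference between these genes and the members was not tested.

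**Figure D4:**
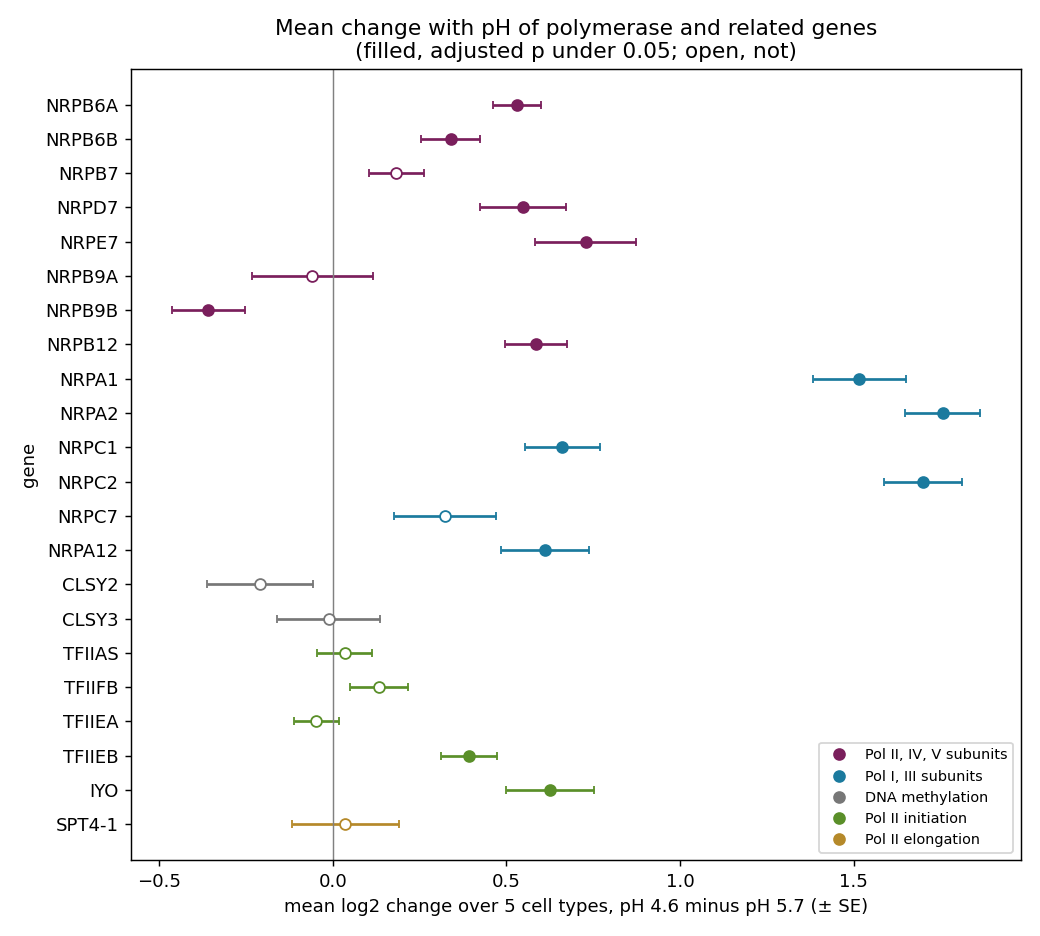
Mean log2 change over cell types, at pH 4.6 minus pH 5.7, with standard errors, of the 8 members and of tested genes of related lists, filled where the adjusted p was under 0.05. NRPA2, NRPC2 and NRPA1 lie at 1.52 to 1.76, above all 8 members.

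Across the 30 arrays the members moved together to different degrees. The log2 signal of NRPB6A correlated with that of NRPB12 at r = 0.85, of NRPD7 at r = 0.85 and of its paralog NRPB6B at r = 0.71, while NRPB9A and NRPB9B gave r = -0.20. NRPB9A was below the pseudocount on 15 of the 30 arrays, which limits what its values of r, here and below, can show. Arrays share their group, scaling and labelling, so all these values describe the 30 arrays and carry no test. The 3 other genes most like each member were sought by Pearson r over the 30 arrays among 9457 tested probe sets with a single gene. For NRPB6A these were ATG8G (r = 0.960), AT5G03970 (r = 0.953) and AT3G20430 (r = 0.938). NRPB6B was most like AT5G15750 (r = 0.839), AT5G50315 (r = 0.805) and AT3G01740 (r = 0.805). The closest to NRPB12 were AT1G69210 (r = 0.918), AT1G71840 (r = 0.914) and AT4G37090 (r = 0.913). NRPB7 had AT1G06560 (r = 0.876), AT2G15270 (r = 0.823) and DI21 (r = 0.820). NRPD7 had AT4G17370 (r = 0.938), AT4G02220 (r = 0.916) and AT3G58180 (r = 0.899), and NRPE7 had RRP41 (r = 0.933), AT3G19440 (r = 0.914) and AT1G02870 (r = 0.895). NRPB9A was closest to AT1G28760 (r = 0.862), AT5G58930 (r = 0.833) and DPE1 (r = 0.818). The genes most like NRPB9B were TUB7 (r = 0.932), AT2G38180 (r = 0.928) and AT1G55210 (r = 0.914), and TUB7 encodes a beta tubulin.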

How the data were processed

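RNA from sorted root cells was amplified with a two-cycle protocol, per the labels, and hybridised to 30 arrays. The authors deposited probe set signals, an intensity on a linear scale made with MAS5, per the submitters' processing notes, with no version given, and every array has a 2% trimmed mean of 250.0. The genome build is not given in the sources used here, so no coordinates are printed, and gene names follow TAIR10.1.

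Of 22810 probe sets, 64 controls were set aside, and 17039 of the other 22746 were tested because their signal exceeded percentile 40 of the array on 3 or more arrays. A table of probes gave 1 gene for 13513 probe sets and several for 503, and probes with several genes are not named. Signals became log2(signal + 11.9), the pseudocount being percentile 25 of all values. A group-mean model with an intensity trend was fitted to the 30 arrays together (limma 3.58.1, R 4.3.3), with 20 residual degrees of freedom. P-values were adjusted after Benjamini and Hochberg over all 17039, except for paralog ratios, which had exact permutation tests in Python 3.11.15. The code was tested on simulated data. The number of arrays limits the precision. ± after a signal is an SD, and after a log2 change an SE. Groups and replicate numbers come from the sample titles.

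The alternatives were other pseudocounts, normalizations and filters, robust moderation, array weights, a fit per cell type, replicate blocks and leaving out each array. Leaving out cortex, leaving out 3 arrays together and the ratios of seventh subunits were added after seeing the data. The members and gene lists were chosen with earlier results of these data known. All 8 members are named, with up to 4 genes of each other list that passed and changed most, the measured markers and the 3 probe sets most like each member. Untested list genes and TFIIEA, whose cortex call was its single one, are named with their values.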

Additional observations from a re-analysis of the deposited data

Results flagged for a closer look

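The response of NRPB6B to pH differed between cell types. The F test of that difference had a limma adjusted p of 0.0101, and it ran from 0.000945 to 0.0329 when the processing was varied. The log2 change at pH 4.6 was 0.81 ± 0.19 in cortex and 0.71 ± 0.19 in epidermis (SE), against -0.36 ± 0.19 in stele. Mean signals of the 3 arrays were 272 ± 21.0 at pH 4.6 and 356 ± 72 at pH 5.7 in stele, and 272 ± 55.8 at pH 4.6 and 149 ± 7.99 at pH 5.7 in cortex (SD). In cortex the control ratios of 3' to 5' signal were also lower at pH 4.6, and their part was not tested.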

How the results depend on the processing

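Counts of called members kept within 1.5 times in the cortex (4, range 3 to 6) and in the mean (6, range 4 to 7) under the alternatives run. A kept count can hide a change of members: without cortex the mean again called 6, with NRPB6B lost and NRPB7 gained. Columella had 2, and 1 with a pseudocount of 1 or a filter at percentile 60 (1 to 2 leaving out single arrays). Epidermis had 2, and 0 in the fit to its 6 arrays (0 to 2 leaving out single arrays). Endodermis had 2, and 1 with a pseudocount of 1 or its 6 arrays (1 to 4 leaving out single arrays). Stele had 1, and 0 with equal medians, no filter, either replicate block, its 6 arrays alone or with 3 pH 5.7 arrays out together, namely epidermis replicate 2, cortex replicate 3 and stele replicate 3 (0 to 1 leaving out single arrays). The interaction had 1 member, and 2 with array weights. Cell type tests had 8 members, and 5 with the filter at percentile 60, which 5 members pass. The ratio of NRPB9A over NRPB9B rose by 0.30 at pH 4.6, and by 0.22 with the median pseudocount, which passed (permutation, adjusted p = 0.0478). That pseudocount of 55.3 lies above every NRPB9A signal (highest 53.2) and flattens that gene. This call is therefore not read as a shift between the paralogs. Leaving out single arrays gave 0.186 to 0.386, passing without epidermis pH 5.7 replicate 2. NRPB6A over NRPB6B was called in 2 cell types, and in 1 with a pseudocount of 1.

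Recomputed changes and F values of single genes, seventh subunit ratios and paralog ratios by cell type numbered 2996 together. Of these, 2886 kept their call and, where they have one, their direction. A call was lost by 59 and gained by 20. Another 31 changed sign without a call on either side, and no called value reversed. Deviations of same-numbered arrays correlated at r of -0.14 to 0.21 over 15 pairs, and 7 of 15 correlated best with their own number. In epidermis all 3 pairs were over 0.1 (0.121 to 0.181), and with a replicate block within cell types its called members stayed at 2 and all its calls numbered 1848, against 1731 without the block. In no other cell type were all 3 pairs over 0.1. With the number as a block within cell types, the mean response called 6 members. Over all probe sets, epidermis calls numbered 1731, 3330 with array weights, 460 in its own fit, 2876 with 3 arrays out and 781 to 2658 leaving out single arrays. Cortex had 3250 and 5751 with array weights, and the interaction 2132 and 4971. Endodermis had 2822, 1268 in its own fit and 1582 without pH 4.6 replicate 1. Stele had 1201, 630 in its own fit, 621 with 3 arrays out and 389 to 704 leaving out pH 4.6 replicate 2 or 3 or pH 5.7 replicate 2 or 3. Faint signals limit NRPB9A, NRPD7 and, to a lesser degree, NRPE7, and the causes of these shifts were not tested.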
